A study of Homo sapiens with 6 samples.

Results

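The 10 genes described here encode the large machines that give a mitotic chromosome its shape: the topoisomerase II enzymes (TOP2A, TOP2B), the proliferation marker Ki-67 (MKI67) and the condensin subunits SMC2, SMC4, NCAPD2, NCAPD3, NCAPG, NCAPG2 and NCAPH. They form a fixed list of names, chosen for their function, with earlier results of these data known, and all 10 were found among the 57773 genes of the count table. Cells of SW872, a long-established line from a human liposarcoma, were incubated with 18 μM Apatinib, a tyrosine kinase inhibitor, for 24 h (Apatinib group, n = 3) or left untreated (control group, n = 3), and their RNA was sequenced. The methods call the 3 samples of a group biological replicates without saying whether they were separate cultures, so p-values measure the spread between these samples. The data cover 1 cell line, 1 dose and 1 time.

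Topoisomerase II cuts both strands of a DNA duplex, passes another duplex through the break and reseals it, which frees sister chromatids from each other. TOP2A is made mainly in proliferating cells and is the main target of anthracyclines such as epirubicin, while TOP2B is also present in resting cells. Condensins are ring-shaped ATPases that fold chromatin into loops. Both condensin complexes share SMC2 and SMC4. Condensin I adds NCAPD2, NCAPG and NCAPH, and condensin II adds NCAPD3, NCAPG2 and NCAPH2. Ki-67 coats the surface of mitotic chromosomes and keeps them apart, and its staining is the usual measure of the growth fraction of a tumor, including liposarcoma.

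The total of counts lay between 17043314 and 22067558 per sample, and 16290 genes passed the filter on low counts, all 10 genes among them. The cells had 13447 to 18790 counts of VIM, a mesenchymal marker, and 859 to 1138 counts of PPARG, which drives fat cell formation, but FABP4 and ADIPOQ, markers of mature fat cells, had 0 counts in every sample. Of the other adipocyte markers, LPL had 187 to 416 counts, PLIN1 14 to 30, LEP 0 to 2 and CEBPA 0. PTPRC, which marks white blood cells, also had 0 counts. The summed FPKM of the 5 mesenchymal markers was 1447 to 1653 in the Apatinib group and 1174 to 1279 in the control group, and that of the 5 epithelial markers, almost all of it KRT8 and KRT18, was 186 to 221 against 154 to 186; the part of these shifts in the results was not tested. Summed FPKM of the 7 adipocyte markers, most of it PPARG, was 23.1 to 32.3 against 21.8 to 24.4, and the 3 endothelial markers found stayed below 1 in every sample. The 4 immune markers reached 6.90 to 11.9 against 1.87 to 3.39, through CD68, which had no more than 1 count in any sample of the count table. Controls 1 and 2 stood closer together than any other samples. Their chi-square per gene was 2.27, where 1 is sampling noise, against 18.2 to 44.5 for the other samples of a same group. Between the groups it ran from 26.5 (Apatinib 3 and control 3) to 78.4 (Apatinib 1 and control 2), so these ranges overlapped. Controls 1 and 2 differed by more than sampling noise and were kept as separate samples, but nothing in the sources says that they came from separate cultures. If they did not, the control group has fewer than 3 independent samples and the FDR values are too small.

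Levels of 9 of the 10 genes fell with Apatinib, and none rose. A gene was called changed if edgeR's quasi-likelihood test gave it an FDR (Benjamini-Hochberg adjusted p) below 0.05 and its log2 fold change exceeded 0.5 in size. By this rule 5.48% of all tested genes were lower and 5.97% were higher. Log2 fold changes ran from -1.47 for SMC2 to -0.41 for NCAPD2, the gene that was not called. Their median was -0.90, against 0.0028 over all tested genes. In all 10 genes the highest Apatinib replicate was lower than the lowest control in CPM (counts scaled to the size of the library), and this held for 15.7% of all tested genes. Together the 10 genes made up 0.181%, 0.134% and 0.226% of the counts in Apatinib 1, 2 and 3, and 0.371%, 0.371% and 0.286% in controls 1, 2 and 3. In RNA from bulk cultures, fewer dividing cells and less RNA of these genes in each cell cannot be told apart.

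**Figure D1:**
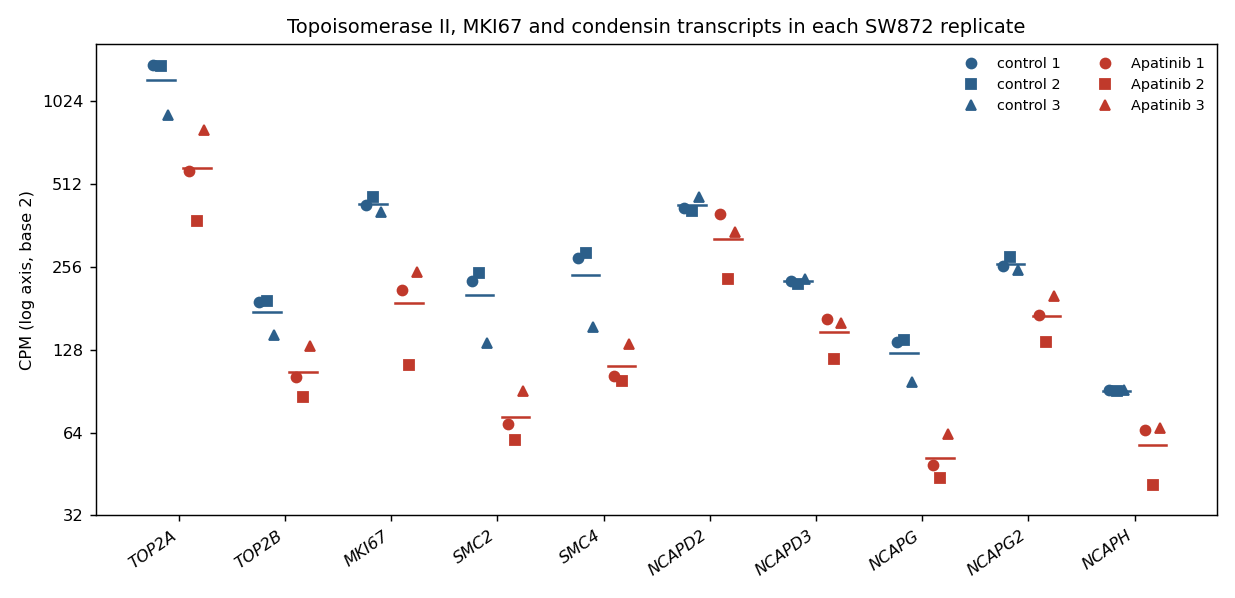
CPM (log axis, base 2) of the 10 genes in the 3 control replicates (blue) and the 3 Apatinib replicates (red); symbols mark the replicate number and horizontal lines the group means. In every gene the red symbols lie below the blue ones, Apatinib 2 is the lowest sample, and in TOP2A, TOP2B, SMC2, SMC4 and NCAPG control 3 lies apart from controls 1 and 2 toward the Apatinib group.

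TOP2A had 573, 375 and 809 CPM in Apatinib 1, 2 and 3, against 1389, 1376 and 916 CPM in controls 1, 2 and 3, the order used for every gene. The groups did not overlap, but control 3 lay much nearer to Apatinib 3 than to the other controls. The mean was 586 ± 217 CPM (SD, n = 3) in the Apatinib group and 1227 ± 269 CPM (SD, n = 3) in the control group. Its log2 fold change was -1.07 (SE 0.25; edgeR FDR 0.0218), which leaves 47.7% of the control level. TOP2B, the paralogue that resting cells also use, had 102, 86.0 and 132 CPM with Apatinib against 191, 193 and 145 CPM in the controls. Here too Apatinib 3 and control 3 were the closest samples across the groups. TOP2B fell by 0.72 on the log2 scale (SE 0.17; edgeR FDR 0.0231), to 60.5% of the control level. Both topoisomerase II genes lost their call when control 1, control 2 or Apatinib 1 was left out, and TOP2B also without Apatinib 2.

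The values of MKI67 were 211, 113 and 245 CPM in the Apatinib group and 429, 462 and 406 CPM in the control group. All 3 controls were close to each other, and the highest Apatinib replicate stood well below the lowest control. With means of 190 ± 68.5 and 432 ± 27.6 CPM (SD, n = 3 each), its log2 fold change was -1.19 (SE 0.23; edgeR FDR 0.0108), that is 2.28-fold lower. MKI67 was 1 of only 3 of the 10 genes, with SMC2 and NCAPG, that were called in each of the 6 fits that left out 1 replicate.

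SMC2 and SMC4 are the pair of ATPase arms that every condensin ring contains. SMC2 had 68.9, 60.1 and 90.4 CPM with Apatinib and 228, 243 and 136 CPM in the controls. This was the largest change among the 10 genes, with a log2 fold change of -1.47 (SE 0.22; edgeR FDR 0.00473), or 36.2% of the control level. SMC4 had 103, 98.4 and 135 CPM against 276, 287 and 155 CPM. For both genes control 3 was far lower than controls 1 and 2, and for SMC4 it stood just above Apatinib 3. SMC4 fell by 1.10 (log2; SE 0.22; edgeR FDR 0.0119), and this call was lost when control 1 or control 2 was left out.

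Among the subunits found only in condensin I, NCAPG, a HEAT-repeat subunit that helps to hold DNA, changed most. Its values were 48.7, 43.6 and 63.3 CPM in the Apatinib group and 137, 139 and 98.1 CPM in the control group. The replicates were separated by a wide gap, and the log2 fold change was -1.27 (SE 0.18; edgeR FDR 0.00361), or 2.41-fold lower. NCAPH, the kleisin that closes the condensin I ring, had 65.4, 41.4 and 66.3 CPM against 91.1, 90.3 and 91.2 CPM. Its controls were almost identical, whereas Apatinib 2 stood below the other treated samples. NCAPH fell by 0.65 (log2; SE 0.17; edgeR FDR 0.0303), and was not called without Apatinib 2, control 1 or control 2. NCAPD2, the other HEAT-repeat subunit of condensin I, had 398, 232 and 342 CPM with Apatinib and 420, 410 and 459 CPM without. Apatinib 1 came within a few percent of the lowest control, so that the gap between the groups was narrow. Its log2 fold change was -0.41 (SE 0.17; edgeR FDR 0.140), which did not pass the test.

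The condensin II subunits NCAPD3 and NCAPG2 changed by similar amounts. NCAPD3 had 166, 119 and 161 CPM in the Apatinib group and 228, 222 and 232 CPM in the control group. NCAPG2 had 171, 137 and 201 CPM against 257, 279 and 250 CPM. In both genes the controls were tight and Apatinib 2 was the lowest sample. The log2 fold change was -0.61 for NCAPD3 (SE 0.14; edgeR FDR 0.0201) and -0.63 for NCAPG2 (SE 0.15; edgeR FDR 0.0219). Both lost their call without Apatinib 2, control 1 or control 2, and NCAPG2 also without Apatinib 1 and with the GC correction. The kleisin of condensin II, NCAPH2, is not one of the 10 genes and was not called. It had 48.0, 37.4 and 44.5 CPM with Apatinib and 49.2, 47.7 and 55.7 CPM without, and the groups overlapped (log2 fold change -0.23, SE 0.13, edgeR FDR 0.266).

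**Figure D2:**
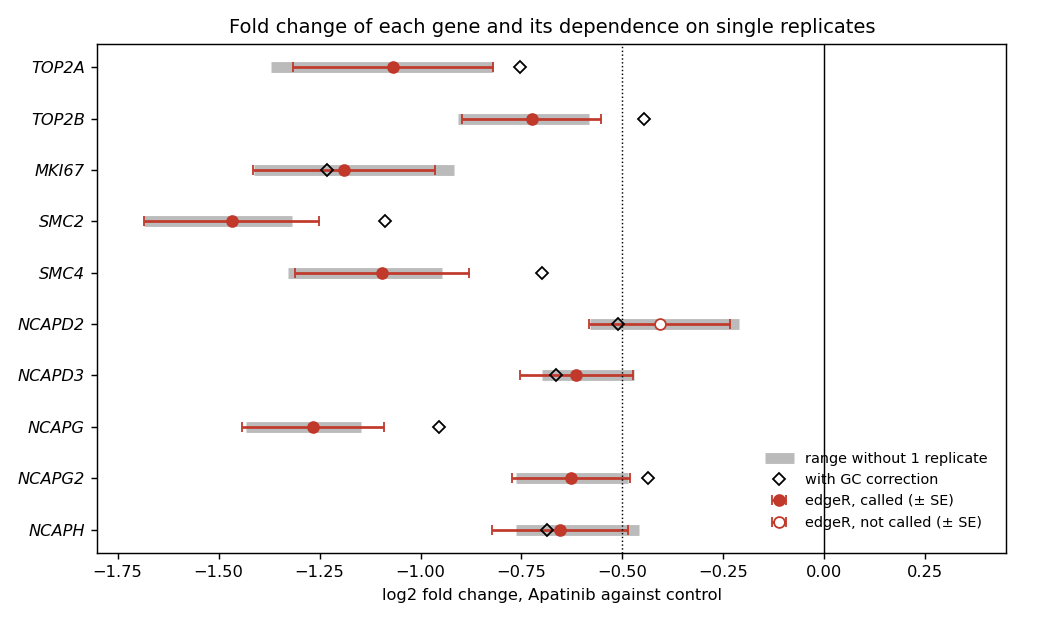
Log2 fold change (Apatinib against control, x axis) of each of the 10 genes in edgeR, with its SE (red bars), the range over the 6 fits that left out 1 replicate (grey bars) and the value after a correction for GC content (diamonds); the dotted line marks -0.5. All values lie left of 0, from -1.68 (SMC2 without control 3) to -0.21 (NCAPD2 without Apatinib 2).

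Single samples decided how many of the 10 genes were called. Apatinib 2 was the lowest sample in all 10 genes, and Apatinib 3 was the highest treated sample in 8 of them. Control 3 was the control nearest to the Apatinib mean in 7 genes. Without Apatinib 2, 5 genes were called, and 3.63% of all tested genes were called lower. Without control 1, or without control 2, 3 genes were called (MKI67, SMC2 and NCAPG), in fits that called 0.497% and 0.509% of all tested genes lower. With controls 1 and 2 summed into 1 sample, the same 3 genes were called, where 0.508% of all tested genes were called lower. All 9 calls were kept without Apatinib 3 and without control 3, in fits that called 5.94% and 8.89% of all tested genes lower. When edgeR's glmTreat tested against a log2 fold change of 0.5 instead of 0, SMC2 and NCAPG were called. In that fit 0.0859% of all tested genes were called lower.

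**Figure D3:**
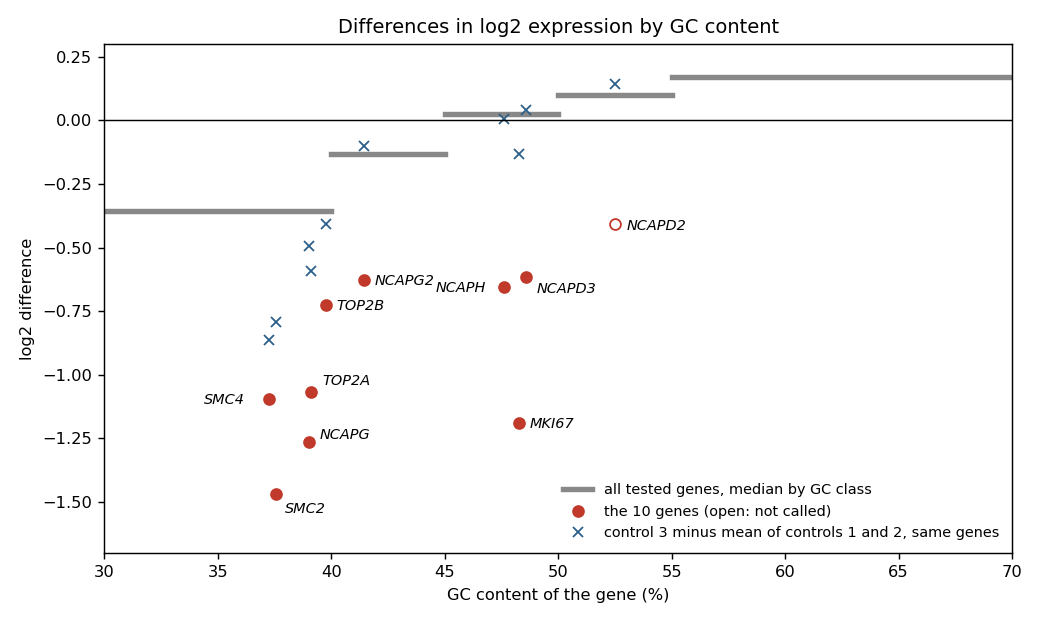
Log2 fold change of the 10 genes (red; open symbol: not called) and the log2 difference of control 3 from the mean of controls 1 and 2 in the same genes (blue crosses), by the GC content of the gene in percent; grey bars give the median log2 fold change of all tested genes in each GC class, drawn from 30% to 70%. The crosses fall from above 0 for NCAPD2, with the highest GC content, to -0.87 for SMC4, with the lowest.

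Fold changes in the whole table followed the GC content of the genes, and so did the difference between control 3 and the other controls. Tested genes with a GC content below 40% had a median log2 fold change of -0.36, and 18.7% of them were called lower. For genes at 55% or above, the median was 0.17 and 0.994% were called lower. TOP2A, TOP2B, SMC2, SMC4 and NCAPG belong to the first class, with GC contents between 37.3% and 39.7%. In these 5 genes control 3 was below the mean of controls 1 and 2, by log2 differences of -0.59, -0.41, -0.79, -0.87 and -0.49, and the median over all tested genes of that class was -0.39. MKI67 (48.3% GC), NCAPD3 (48.6%) and NCAPH (47.6%) lay where the median log2 fold change of all genes was 0.025, and control 3 differed from the other controls by -0.13, 0.042 and 0.0070 there.

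After a correction for GC content, 7 of the 10 genes and 3.58% of all tested genes were called lower. The log2 fold change became -1.09 for SMC2, -0.95 for NCAPG, -0.75 for TOP2A and -0.70 for SMC4, all still called. Their edgeR FDR values were 0.00342, 0.00295, 0.0489 and 0.0137, so TOP2A passed only narrowly. TOP2B (-0.45, edgeR FDR 0.0528) and NCAPG2 (-0.44, edgeR FDR 0.0619) were no longer called. MKI67 (-1.23), NCAPD3 (-0.67) and NCAPH (-0.69) moved slightly away from 0. The corrected change of MKI67 (SE 0.23) was the largest of the 10 genes, but that of SMC2 (SE 0.15) lay within 1 SE of it, so their order was not resolved. NCAPD2 was at -0.51 and was still not called.

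Levels can be compared between genes only per length of transcript, for which the FPKM values were used. The annotation behind them is not given and may differ from that of the counts, since CD68 had up to 11.8 FPKM with no more than 1 count. On this scale TOP2A was the most abundant of the 10 genes in both groups, at 152 ± 37.4 FPKM (SD, n = 3) in the control group and 73.0 ± 27.3 FPKM (SD, n = 3) in the Apatinib group. In the control group NCAPD2 followed at 56.0 ± 2.81 FPKM, then SMC4 at 47.2 ± 14.2, NCAPG2 at 45.2 ± 2.64 and NCAPD3 at 35.5 ± 2.22. TOP2A did not overlap with NCAPD2, the next in order, whereas the replicates of NCAPD2, SMC4 and NCAPG2 did overlap along that order. Below them SMC2, NCAPH, TOP2B, MKI67 and NCAPG lay between 21.7 and 24.6 FPKM, and neighbors in this order were not separated by their replicates. With Apatinib, SMC2 had the lowest mean, 8.95 ± 1.87 FPKM, but its replicates overlapped those of NCAPG and MKI67, so that the lowest place was not resolved. NCAPD2, at 42.3 ± 9.71 FPKM, overlapped with TOP2A. SMC4 had a mean of 22.4 ± 3.99 FPKM, and its replicates overlapped those of NCAPG2 and NCAPD3 in both groups.

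Whether related genes changed by different amounts was tested on the log2 ratio of their CPM within each sample, which does not depend on library scaling. With 3 against 3 samples, the exact two-sided permutation test cannot go below p = 0.1. The log2 ratio of NCAPG to NCAPG2 was -1.81, -1.65 and -1.67 in the Apatinib group and -0.91, -1.005 and -1.35 in the control group. The groups did not overlap, and the difference of -0.62 was the largest among the 5 pairs (exact p = 0.1, 0.125 adjusted over the pairs). The ratio of SMC2 to SMC4 was -0.58, -0.71 and -0.57 against -0.28, -0.24 and -0.19, a difference of -0.39 with a gap wider than the spread within either group. TOP2A to TOP2B gave 2.49, 2.12 and 2.61 against 2.86, 2.84 and 2.66. Here the difference was -0.38, and the closest samples of the groups were only just apart. Without Apatinib 2 this difference was -0.23. NCAPH to NCAPH2 gave a difference of -0.45, also without overlap, though the GC contents of this pair were 47.6% and 62.2%. These 3 pairs had the same exact p of 0.1 and adjusted value of 0.125. For NCAPD2 to NCAPD3 the groups overlapped, and the difference was 0.19 (exact p = 0.2, adjusted 0.2), or 0.11 without Apatinib 1.

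**Figure D4:**
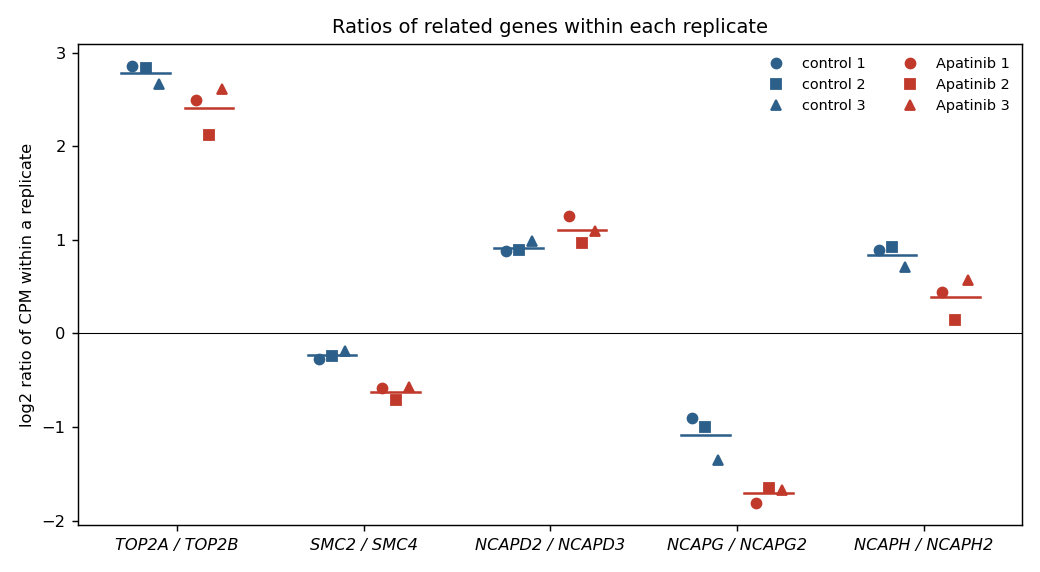
Log2 ratio of the CPM of 2 related genes within each sample (y axis), for 5 pairs; controls in blue, Apatinib in red, symbols by replicate number and lines at the group means. In 4 pairs every Apatinib sample lies below every control, and in NCAPD2 to NCAPD3 the groups overlap.

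Other genes of chromosome structure were read from the same fit. All 49 genes on 7 lists were tested, of which 17 were called lower and 0 higher, with a median log2 fold change of -0.38. At an unadjusted p under 0.05, 29 of the 49 passed, as did 30.6% of all tested genes. DESeq2 called 21 lower and 0 higher, in a fit that called 7.05% of the 14901 genes to which it gave an adjusted p lower. The cohesin ring, which holds sister chromatids together and shares the SMC design with condensin, had 6 of 7 genes called lower and a median of -0.82. STAG1 (-1.06), SMC3 (-1.01), STAG2 (-0.97), PDS5B (-0.82), RAD21 (-0.72) and SMC1A (-0.59) were called, and PDS5A (-0.40) was not. With the GC correction 4 of the 7 were called, without RAD21 and PDS5B, and with limma on FPKM 3 were called. Without control 1, or without control 2, STAG1 was the 1 gene of this list still called. Among 11 genes of cohesin loading, release, acetylation and protection, 5 were called lower: ESCO2 (-1.29), the acetyltransferase that locks cohesin on replicated DNA, SGO2 (-1.24) and SGO1 (-0.63), the shugoshins that guard it, NIPBL (-0.72), which loads it, and CDCA5 (-0.52), which stabilizes it. The groups of NIPBL overlapped in CPM, and NIPBL and SGO1 were not called with the GC correction. For SGO2, control 3 (30.9 CPM) lay near Apatinib 3 (28.2 CPM). SGO2 and NIPBL lost their call with limma, with controls 1 and 2 summed and without Apatinib 1, Apatinib 2, control 1 or control 2. SGO1 lost it with these controls summed and without Apatinib 1, control 1 or control 2. CDCA5 lost it with controls 1 and 2 summed and without Apatinib 2, Apatinib 3, control 1, control 2 or control 3. The SMC arms of the SMC5/6 complex, SMC5 (-0.94) and SMC6 (-0.71), were called, but their groups overlapped in CPM, and none of the other 4 subunits were called. Both have a GC content below 40%, and neither was called with the GC correction, with limma, with controls 1 and 2 summed, or without Apatinib 1, Apatinib 2, control 1 or control 2.

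Of the Ki-67 partners and proteins of the chromosome periphery, 1 of 7 was called lower. This was CDCA2, a protein phosphatase 1 subunit that binds chromatin at the end of mitosis. It had 65.0, 49.4 and 65.7 CPM in the Apatinib group and 109, 109 and 96.1 CPM in the control group (log2 fold change -0.80, SE 0.14, edgeR FDR 0.00776). NCL, a nucleolar protein, had an edgeR FDR of 0.0303, but its change of -0.45 was below the limit of 0.5. Of the condensin II kleisin and the condensin regulators, 1 of 6 was called, KIF4A (-0.59), a chromosome-bound kinesin that works with condensin I. BIRC5 (-0.61) and VRK1 (-0.73) were called among 8 genes of chromatin release and mitotic compaction. VRK1 was not called with the GC correction, and both lost their call with limma, with controls 1 and 2 summed and without Apatinib 2, control 1 or control 2. VRK1 lost it without Apatinib 1 as well, and BIRC5 without Apatinib 3 or control 3. KIF4A lost its call with controls 1 and 2 summed and without Apatinib 2, control 1 or control 2. None of the other topoisomerases (0 of 4) was called, and none had an unadjusted p under 0.05 in edgeR or in DESeq2. Every alternative also called 0 of the 4, with 2 genes under that p after the GC correction and 1 with limma, without Apatinib 1 and without Apatinib 2. TOP1, the single-strand cutting enzyme with the smallest p of these, had 174, 253 and 202 CPM against 262, 270 and 239 CPM, and its groups overlapped (log2 fold change -0.29, edgeR FDR 0.195). The number called on the 7 lists was 3 without control 1 and without control 2 (STAG1, ESCO2 and CDCA2 in both), 8 without Apatinib 2 and 11 without Apatinib 1, a fit in which 1.62% of all tested genes were called lower. With the GC correction 14 were called, of which 10 were among the 17, while PLK1, ESPL1, KIF22 and INCENP came in.

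**Figure D5:**
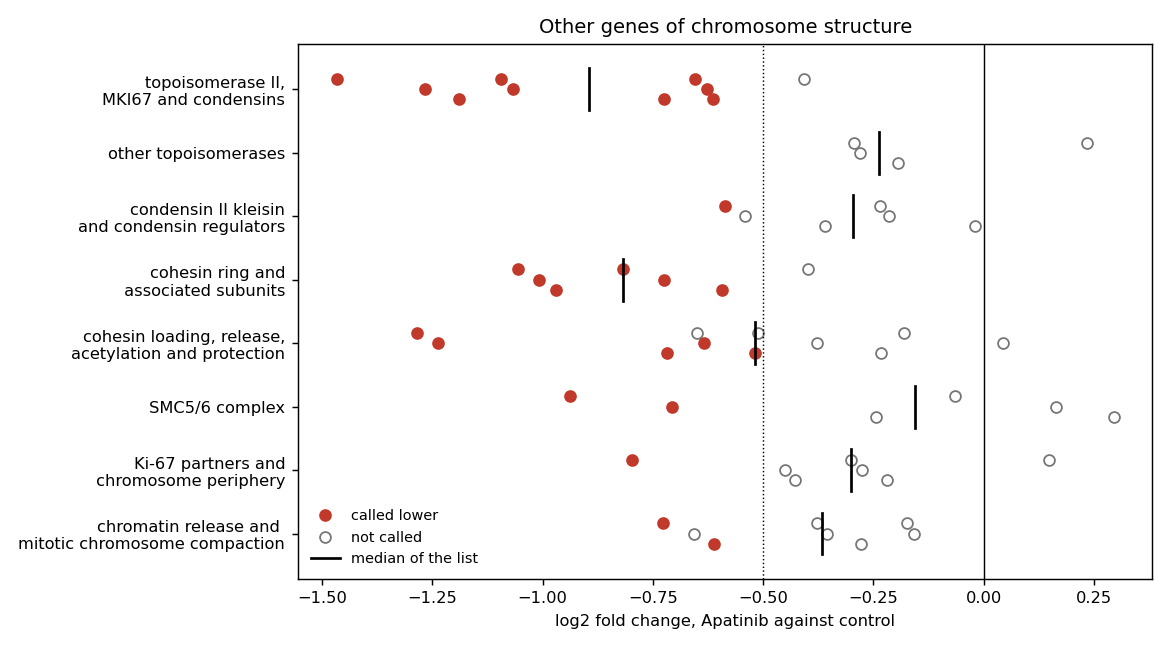
Log2 fold change (Apatinib against control, x axis) of the 10 genes and of the 49 genes on 7 other lists of chromosome structure; filled symbols were called lower in edgeR, open symbols were not called, and black bars are list medians. The cohesin ring has 6 filled symbols of 7, and the other topoisomerases have none.

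The profile of each gene over the 6 samples was compared by the root mean square difference of log2 CPM, each gene centered on its own mean. The genes most like TOP2A were DLGAP5 (0.054), KIF11 (0.060), ITGB3BP (0.062), WDHD1 (0.067) and ANLN (0.077). Each of these was called lower, with log2 fold changes from -1.07 to -0.93. The group difference is part of the profile, so fold changes near that of TOP2A follow from how these genes were picked. For MKI67 the nearest genes were less alike: SPC25 (0.11), RYR3 (0.13), SNORD64 (0.13), TEX19 (0.13) and CLSPN (0.14). RYR3, SNORD64 and TEX19 averaged under 1 CPM and were not called. Between the 10 genes themselves, NCAPD3 and NCAPH were the most alike (0.079) and SMC2 and NCAPD2 the least (0.62). TOP2A and MKI67 differed by 0.20. These are descriptions over 6 samples, and all genes of a sample come from the same library.

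Because most of the 10 genes moved together, their promoters were read from RefSeq (build GRCh38.p14), over 250 bases before to 50 bases after each annotated start. TTTGAA is the core of the cell cycle genes homology region (CHR), an element that many genes of late cell cycle phases carry, often near CCAAT boxes. Counting both strands, 9 of the 10 genes held TTTGAA in at least 1 window, against 18.2% of 27305 genes. NCAPH had none but held the related TTTAAA, which 14.5% of genes had. CCAAT was found in 6 of the 10 genes and in 39.7% of all, and GGCGGGAA, a form of the E2F site, in 1 of the 10 (NCAPD3) and in 3.79%. The motifs are not palindromic except TTTAAA, and TTTGAA and CCAAT can share bases. NCAPD2, which was not called, also had TTTGAA. To compare the matches, 30 bases around the one nearest to the start of each gene are given below on the strand that reads TTTGAA, or for NCAPH TTTAAA, with the match in capitals.
TOP2A (chr17:40418030-40418059): ggccggggtttgTTTGAAtaaaccaatcag
TOP2B (chr3:25665117-25665146): gtgggttttccaTTTGAAgggagagcaggg
MKI67 (chr10:128126435-128126464): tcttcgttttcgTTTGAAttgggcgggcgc
SMC2 (chr9:104094294-104094323): actatttattccTTTGAAtttcggcgcgag
SMC4 (chr3:160399563-160399592): gggatccactaaTTTGAAaaaaagtgcggc
NCAPD2 (chr12:6493945-6493974): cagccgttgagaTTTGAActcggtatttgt
NCAPD3 (chr11:134223953-134223982): gcgggagcgagcTTTGAAagttgagcacgg
NCAPG (chr4:17810932-17810961): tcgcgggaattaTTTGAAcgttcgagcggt
NCAPG2 (chr7:158704755-158704784): gcgccggcgggtgcgTTTGAAtctggtccg
NCAPH (chr2:96335786-96335815): cgacgcgcgcgaTTTAAAaccagctcagga

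The matches lay 3 bases before the start in SMC2 and NCAPD3, 29 in MKI67, 35 in NCAPG, 75 in SMC4, 145 in NCAPD2, 151 in TOP2A and 227 in TOP2B, counted to the first base of the match on the gene strand. Those of NCAPG2 and NCAPH lay 35 and 32 bases after it. TOP2A, TOP2B, MKI67 and NCAPD3 are transcribed from the minus strand, as is NCAPG2, and the others from the plus strand. The sequences before the start of TOP2A and MKI67 are shown on the gene strand because both held several motifs, with TTTGAA and CCAAT in capitals (TTCAAA and ATTGG where they lie on the opposite strand). For TOP2A the 196 bases that no exon of GENCODE release 29 covers are given (chr17:40417951-40418146), with 2 TTTGAA and 3 CCAAT matches. For MKI67 all 250 bases are given (chr10:128126424-128126673), with 2 of each, and the last TTTGAA shares bases with a CCAAT on the opposite strand. A match describes the letters of the sequence and is not evidence that a factor was bound in these cells.
TOP2A: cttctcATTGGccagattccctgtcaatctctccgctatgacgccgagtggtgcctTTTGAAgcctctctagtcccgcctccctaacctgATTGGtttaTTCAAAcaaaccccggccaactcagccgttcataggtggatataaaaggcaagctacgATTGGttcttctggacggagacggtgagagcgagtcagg
MKI67: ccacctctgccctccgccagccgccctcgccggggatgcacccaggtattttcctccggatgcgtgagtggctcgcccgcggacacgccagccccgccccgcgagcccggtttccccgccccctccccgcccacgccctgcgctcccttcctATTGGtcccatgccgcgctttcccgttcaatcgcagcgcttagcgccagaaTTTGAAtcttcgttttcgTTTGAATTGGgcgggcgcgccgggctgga

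Some of these counts may include reads of neighboring genes. Exons of TOP2B, SMC4, NCAPD2, NCAPD3 and NCAPG overlap exons of a gene on the opposite strand in GENCODE release 29 (RARB, IFT80 and TRIM59, MRPL51, AP001775.2, JAM3 and VPS26B, and LCORL), and those of TOP2B also overlap MIR4442 on the same strand. Whether the counting used strand is not given in the sources used here.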

How the data were processed

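RNA of 6 SW872 samples was sequenced. Per the labels, the submitters' processing notes name CASAVA, STAR 2.7.1a and the hg19 build; the counting program, annotation and use of strand are not given in the sources used here. The authors deposited whole-number counts, not normalized, and FPKM, in which transcript length and the number of mapped fragments are divided out. One column headed with another sample's name (1 column) was not used. Samples were grouped by title.

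The test was run in edgeR 4.0.16 (R 4.3.3): filterByExpr, TMM scaling, the quasi-likelihood F test of Apatinib against control and Benjamini-Hochberg adjustment over all 16290 genes tested. Called genes had an FDR below 0.05 and changed by over 0.5 on the log2 scale. CPM used the TMM factors, and log2 CPM a prior count of 2. GC content came from GENCODE release 29, matched by Ensembl identifier (97.1% of tested genes); its correction used a loess (span 0.3) of each sample's deviation as an offset, and was added after seeing the data. Alternatives were DESeq2 1.42.0, RLE factors, other filters, a replicate block, controls 1 and 2 summed, glmTreat, limma 3.58.1 on log2(FPKM + 1 or + 0.1) of genes with a mean FPKM above 0.5, and leaving out each sample. The main edgeR fit, RLE factors, the replicate block, glmTreat, DESeq2 and limma with a pseudocount of 1 were tested on simulated counts. The GC correction, the other filters, the test of the ratios and the promoter search were not. The 10 genes and the lists were chosen with earlier results of these data known. Named were all 10 genes, on each list the called genes or otherwise the gene with the smallest p, and the 5 genes most like TOP2A and MKI67; NCL, PDS5A and NCAPH2 were added after their values were seen. Totals were 17043314 to 22067558 counts, and the lowest value of any of the 10 genes was 733 counts (NCAPH in Apatinib 2).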

Additional observations from a re-analysis of the deposited data

How the results depend on the processing

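All 10 log2 fold changes stayed below 0 under every alternative run. Of the 9 genes called lower, 9 were called with DESeq2, RLE factors, either other filter and the replicate block, 6 with limma on FPKM (both pseudocounts), 7 with the GC correction, 3 with controls 1 and 2 summed and 2 with glmTreat. Of all tested genes, 1.52% and 1.47% were called lower with limma (pseudocounts 1 and 0.1), 0.0859% with glmTreat and 7.17% with the replicate block. The share was 5.54% with RLE factors, 3.87% with no filter on low counts and 5.85% with at least 10 counts in every sample. With controls 1 and 2 summed, the log2 fold change was -0.98 for TOP2A, -0.66 for TOP2B, -0.97 for SMC4, -0.62 for NCAPD3, -0.61 for NCAPG2 and -0.66 for NCAPH, none of them called. With limma, the values that were not called were -1.08 and -1.09 for TOP2A, -0.69 and -0.73 for TOP2B and -0.64 and -0.67 for NCAPH (pseudocounts 1 and 0.1). With the GC correction they were -0.45 for TOP2B and -0.44 for NCAPG2. Leaving out 1 sample gave 3 to 9 called genes, and log2 fold changes from -1.37 to -0.82 for TOP2A, -0.91 to -0.58 for TOP2B, -1.33 to -0.95 for SMC4, -0.70 to -0.47 for NCAPD3, -0.76 to -0.49 for NCAPG2 and -0.76 to -0.46 for NCAPH. The fits without control 1, without control 2 or with both summed had 85 or fewer genes called lower in the whole table, against 893. Fits without Apatinib 3 and without control 3 had 996 and 1492, and the cause was not tested.

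On the 7 other lists, 17 genes were called, 3 with controls 1 and 2 summed, 8 with limma under either pseudocount, 0 with glmTreat, 14 with the GC correction (10 of the 17, and 4 others), 21 with DESeq2 (all 17, and 4 others) and 3 to 17 when 1 sample was left out. The replicate numbers did not pair the groups: deviations of samples with the same number correlated at -0.26, 0.081 and -0.22. With the replicate number as a block, 9 of the 10 genes and 21 genes of the other lists were called. The differences of the 5 within-sample ratios kept their sign when 1 sample was left out, with ranges of -0.48 to -0.23 for TOP2A to TOP2B, -0.41 to -0.34 for SMC2 to SMC4, 0.11 to 0.26 for NCAPD2 to NCAPD3, -0.75 to -0.53 for NCAPG to NCAPG2 and -0.54 to -0.33 for NCAPH to NCAPH2. With 3 samples a group, the exact test of these ratios could not reach an adjusted p under 0.05.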
